A study of Mus musculus with 6 samples.

Results

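The ATP-dependent chromatin remodelling factors were examined in whole FVB mouse embryos at 10.5 days of gestation, in control and in diabetes-exposed pools. Members were the probe sets assigned by the platform table to a single gene symbol of the Chd, Smarc, Baz or Ino80 series or of the Arid series from Arid1 to Arid5 with an a or b, together with Bptf, Atrx, Hells, Pbrm1, Brd7, Brd9, Actl6a and Actl6b. This rule took 125 of the 45101 probe sets on the array, for 49 genes. Of these, 99 probe sets of 47 genes were bright enough to be tested, among 30024 probe sets and 13956 genes tested in all. Chd5, a CHD protein of neurons and testis, was read by 1 probe set with signals of 61.5, 55.7 and 30.0 among control and 4.9, 32.5 and 20.4 among diabetes-exposed pools, and was too dim for the test. The non-coding transcript Ino80dos, which the rule took by its name, stood at 5.9, 38.8 and 22.4 against 51.0, 30.3 and 39.3 and was also left out.

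The diabetes-exposed embryos came from FVB dams that were 7 to 9 weeks old when they received 2 injections of streptozotocin, a toxin of pancreatic beta cells, at 100 mg per kg body weight each within 1 week. These dams had blood glucose above 250 mg per dl. The control embryos came from non-diabetic FVB pregnancies, and whether those dams received the buffer alone is not given in the sources used here. In each group 9 embryos of normal appearance were combined into 3 pools of 3, each embryo from another pregnancy, and every pool was hybridised to its own Affymetrix expression array for the mouse. Since whole embryos were used, fewer cells of a type and less RNA per cell cannot be told apart in any value below.

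Chromatin remodelling factors use the energy of ATP to slide, eject or exchange nucleosomes, and so set which stretches of DNA transcription factors can reach. They are sorted by their motor subunit. CHD proteins carry chromodomains that read histone tails, and CHD3 and CHD4 drive the repressive NuRD complex. SWI/SNF complexes, built on BRG1 (Smarca4) or BRM (Smarca2), open enhancers and promoters and are assembled from interchangeable subunits that change as progenitor cells become neurons or muscle. ISWI motors (Smarca1 and Smarca5) space nucleosomes evenly together with partners of the BAZ family or BPTF, and the INO80 complex exchanges histone variants and acts in DNA repair and replication. Loss of many of these genes disturbs closure of the neural tube or formation of the heart in mice.

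Control features of the arrays differed between the groups and bear on every value. The 3' to middle signal ratio of poly-A spikes, bacterial transcripts added to the RNA, was 2.10, 2.07 and 2.52 for control arrays but 6.56, 3.47 and 7.00 for diabetes-exposed ones, and the 3' to 5' ratio of beta-actin was 1.71, 1.76 and 2.19 against 10.1, 3.09 and 10.3. Diabetes-exposed replicate 2 thus lay nearest to the controls. The median signal of an array ran from 74.1 to 103.3. With 3 arrays per group, their number limits the precision of each value. A gene was read at its brightest tested probe set. It is said to have risen or fallen where limma gave a Benjamini-Hochberg adjusted p under 0.05 over all tested probe sets, fold changes are log2 of diabetes-exposed over control with the standard error (SE), and signals are in arbitrary units.

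More remodelling genes were lower than higher in the diabetes-exposed pools. Of the 47 measured genes, 15 fell and 4 rose, or 31.9% and 8.51%, where 19.9% of all measured genes fell and 17.6% rose. At least 2-fold lower were 4 of the 47 (Chd3, Chd4, Arid1a and Smarcd1), where 6.01% of all genes fell by that much, and 0 of the 47 were 2-fold higher, where 1.03% of all genes were. The median log2 fold change was -0.14 over the 47 genes and -3e-04 over all genes. All 3 diabetes-exposed pools lay below all 3 control pools for 21 of the 47 and above them for 8, where the background over all genes was 26.5% and 25.9%. Without diabetes-exposed replicate 3 the counts were 11 lower and 2 higher genes, where 15% of all genes fell and 11.9% rose. Of the 11, 2 were at least 2-fold lower, and the share of all genes lower by that much was not counted without this pool. Without control replicate 1 the counts were 10 and 3, where 13.4% and 11.1% of all genes did so, and without control replicate 2 they were 10 and 3, where 13.1% and 10.9% did.

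By family, 3 of 9 measured CHD genes fell and 1 rose (33.3% and 11.1%), where 19.9% of all measured genes fell and 17.6% rose. These background shares apply to each family. Of 16 SWI/SNF genes 5 fell and 1 rose (31.2% and 6.25%). Of 7 ISWI genes 3 fell and 1 rose (42.9% and 14.3%), and of 5 INO80 genes 1 fell and 0 rose (20% and 0%). The median log2 fold change was -0.14 for CHD, -0.10 for SWI/SNF, -0.25 for ISWI and -0.13 for INO80. Among SNF2 ATPases outside these families (Atrx, Hells, Smarcad1 and Smarcal1) 1 of 4 fell and 1 rose (25% and 25%, median -0.01). Among ARID proteins outside SWI/SNF 2 of 6 fell and 0 rose (33.3% and 0%, median -0.29). The signs of the CHD and INO80 medians depended on the scaling of the arrays: after quantile normalization they were 0.06 and 0.20, and after median centring, which moved the median of all genes to 0.30, all 6 medians were above 0, between 0.0045 and 0.29, each still below the median of all genes. After that centring 9 members rose and 5 fell, or 19.1% and 10.6%, where 29.1% of all genes rose and 8.73% fell.

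**Figure D1:**
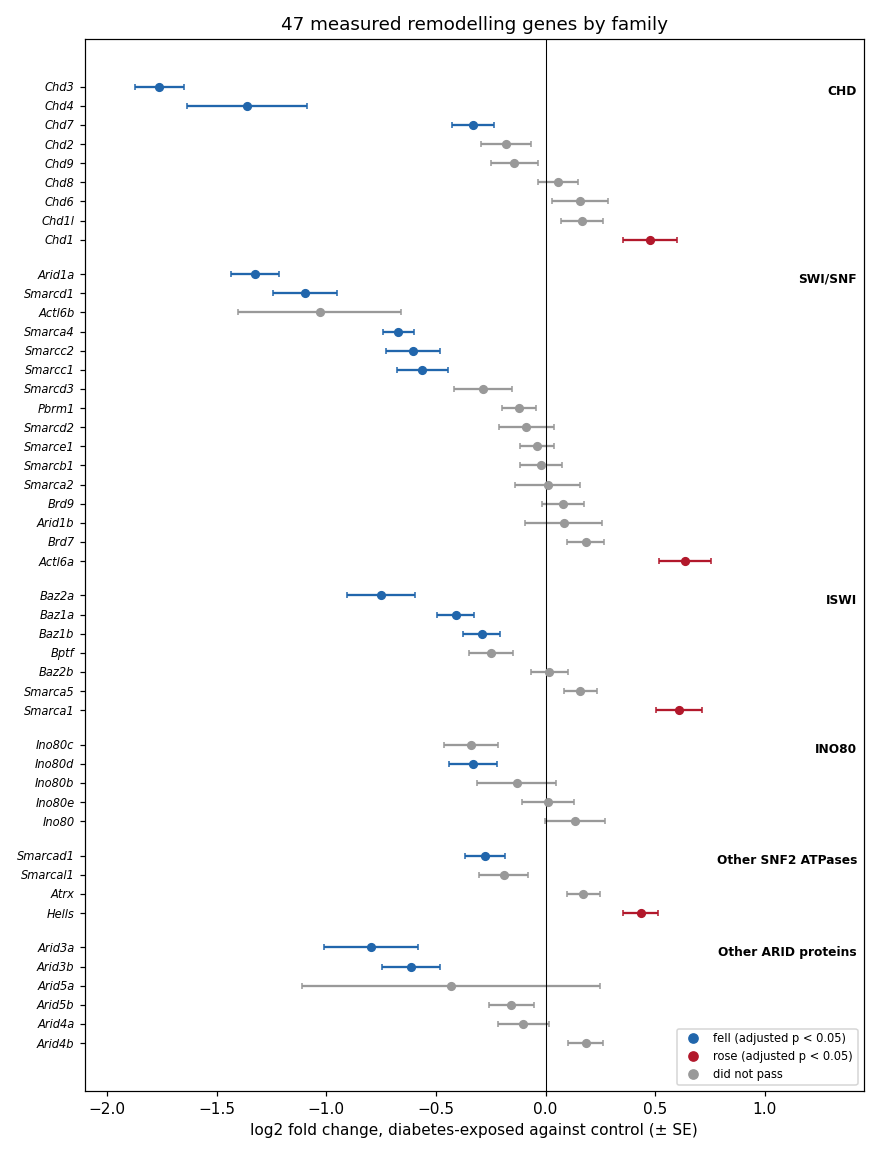
Log2 fold change (horizontal axis, diabetes-exposed against control, with bars of 1 SE) of the 47 measured remodelling genes, grouped by family and ordered by value within each. The points at the left, Chd3, Chd4, Arid1a and Smarcd1, are the genes that fell at least 2-fold, and Smarca1, Actl6a, Chd1 and Hells at the right are those that rose.

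Among the CHD genes, Chd3 and Chd4, which encode motors of the NuRD complex, fell at their brightest probe sets. For Chd3 only 1 probe set was tested. Chd3 had signals of 1556.9, 1941.3 and 1592.7 among control pools and 486.8, 514.5 and 492.7 among diabetes-exposed pools. The highest exposed pool lay far below the lowest control. Its log2 fold change was -1.76 (SE 0.11, adjusted p = 1.5e-04), or 3.39 times lower. Chd4 stood at 2474.5, 2508.4 and 1994.4 against 1054.3, 1270.9 and 546.1, with a log2 fold change of -1.36 (SE 0.27, adjusted p = 0.0056). The exposed pools of Chd4 were all lower than the controls but spread widely, while those of Chd3 were close together. The other Chd4 probe sets tested did not pass, with log2 fold changes of -0.69 (adjusted p = 0.215) and 0.22 (0.863), and at the mean of all its probe sets Chd4 was at -0.61 (adjusted p = 0.14). With the spike ratio described below as a covariate it stood at -0.25 (0.83).

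Chd7, an enhancer-bound remodeller whose human counterpart is mutated in CHARGE syndrome, fell by 0.33 (SE 0.10, adjusted p = 0.027), from signals of 1635.2, 1517.2 and 1635.6 to 1283.7, 1367.9 and 1161.0. This call ended when any control pool, diabetes-exposed replicate 1 or diabetes-exposed replicate 3 was left out, with adjusted p between 0.059 and 0.098, and without a trend in eBayes (0.075). After median centring Chd7 was at -0.0328 (adjusted p = 0.89). Chd1, which travels with RNA polymerase II and binds methylated histone H3 lysine 4, was the CHD gene that rose, from 1057.4, 966.3 and 1168.5 to 1435.3, 1316.7 and 1699.6, a log2 fold change of 0.48 (SE 0.12, adjusted p = 0.016). Its call ended without control replicate 1 (adjusted p = 0.057), control replicate 2 (0.071) or diabetes-exposed replicate 3 (0.059). Another Chd1 probe set fell, as described below. Chd2, Chd6, Chd8, Chd9 and Chd1l did not pass, with log2 fold changes between -0.18 and 0.17.

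In the SWI/SNF family Arid1a fell at least 2-fold. It encodes BAF250A, the DNA-binding subunit that defines the canonical BAF complex. Its signal was 5048.5, 5452.7 and 4232.7 among control pools and 1905.4, 2087.6 and 1862.1 among diabetes-exposed pools. The groups were far apart, and the log2 fold change was -1.33 (SE 0.11, adjusted p = 2.3e-04). The second probe set of Arid1a gave -0.82 (SE 0.09, adjusted p = 5.1e-04). Without control replicate 1 or 2 that second probe set was the brightest, and Arid1a was then at -0.81 (adjusted p = 0.0055) and -0.79 (0.0048), less than 2-fold lower. Arid1b, its alternative in the same position of the complex, did not pass, with a log2 fold change of 0.08 (SE 0.18, adjusted p = 0.75) and overlapping signals of 1074.1, 1023.3 and 914.9 against 1306.3, 796.3 and 1146.4.

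Smarca4, the BRG1 motor, fell from 7476.4, 7362.9 and 7391.0 to 4553.2, 4700.0 and 4703.7, with a log2 fold change of -0.67 (SE 0.07, adjusted p = 5.1e-04). The pools of each group lay within a few per cent of each other. After median centring the log2 fold change was -0.37 and the adjusted p 0.078. The alternative motor BRM, encoded by Smarca2, stood at 595.1, 558.5 and 563.3 against 566.4, 701.6 and 480.2, with a log2 fold change of 0.0092 (SE 0.15, adjusted p = 0.97).

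The scaffold subunits BAF155 (Smarcc1) and BAF170 (Smarcc2), around which the complex is built, both fell. Smarcc1 went from 3502.3, 3593.5 and 3993.1 to 2822.3, 2583.6 and 2142.1 (log2 fold change -0.56, SE 0.11, adjusted p = 0.0060), and Smarcc2 from 1094.9, 1115.8 and 1021.9 to 688.6, 823.1 and 624.8 (-0.61, SE 0.12, adjusted p = 0.0057). Neither passed after median centring (adjusted p = 0.25 and 0.16). A second Smarcc1 probe set overlapped between the groups and did not pass (log2 fold change -0.46, SE 0.20, adjusted p = 0.11). Of the BAF60 subunits, which link the complex to transcription factors, Smarcd1 fell by 1.10 on the log2 scale (SE 0.15, adjusted p = 0.0012), from 1888.6, 1862.0 and 1552.9 to 785.4, 1007.1 and 705.5. Smarcd2 and Smarcd3, the latter the BAF60C subunit of heart and somites, had log2 fold changes of -0.09 (adjusted p = 0.63) and -0.29 (0.13).

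Actl6a, the actin-related BAF53A subunit of dividing progenitors, was the SWI/SNF gene that rose, from 3499.7, 3351.1 and 3769.6 to 5691.0, 4615.0 and 6325.5 (log2 fold change 0.64, SE 0.12, adjusted p = 0.0042). That value came from a probe set that may bind several transcripts. A second, almost as bright, gave 3769.2, 3754.1 and 4524.2 against 4315.2, 4353.4 and 4494.3, with overlap and a log2 fold change of 0.13 (SE 0.09, adjusted p = 0.30). Without diabetes-exposed replicate 3 this second probe set was the brightest, and the log2 fold change of Actl6a was then 0.12 (adjusted p = 0.48). Actl6b, the BAF53B subunit that replaces BAF53A in neurons, was dim at 115.5, 135.5 and 91.9 against 81.4, 63.3 and 32.7. All exposed pools were lower, but the log2 fold change of -1.03 (SE 0.37) did not pass (adjusted p = 0.059).

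The other SWI/SNF genes measured, Smarcb1, Smarce1, Pbrm1, Brd7 and Brd9, did not pass at their brightest probe sets, with log2 fold changes between -0.12 and 0.18. Dimmer probe sets of Smarce1, Smarcd2 and Pbrm1 fell, by 0.74, 0.70 and 0.31, and one of Smarcb1 that may bind several transcripts rose by 0.98 (adjusted p = 0.0026). They include the core subunit BAF47 (Smarcb1, at -0.02) and the bromodomain subunits of the PBAF and non-canonical complexes.

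**Figure D2:**
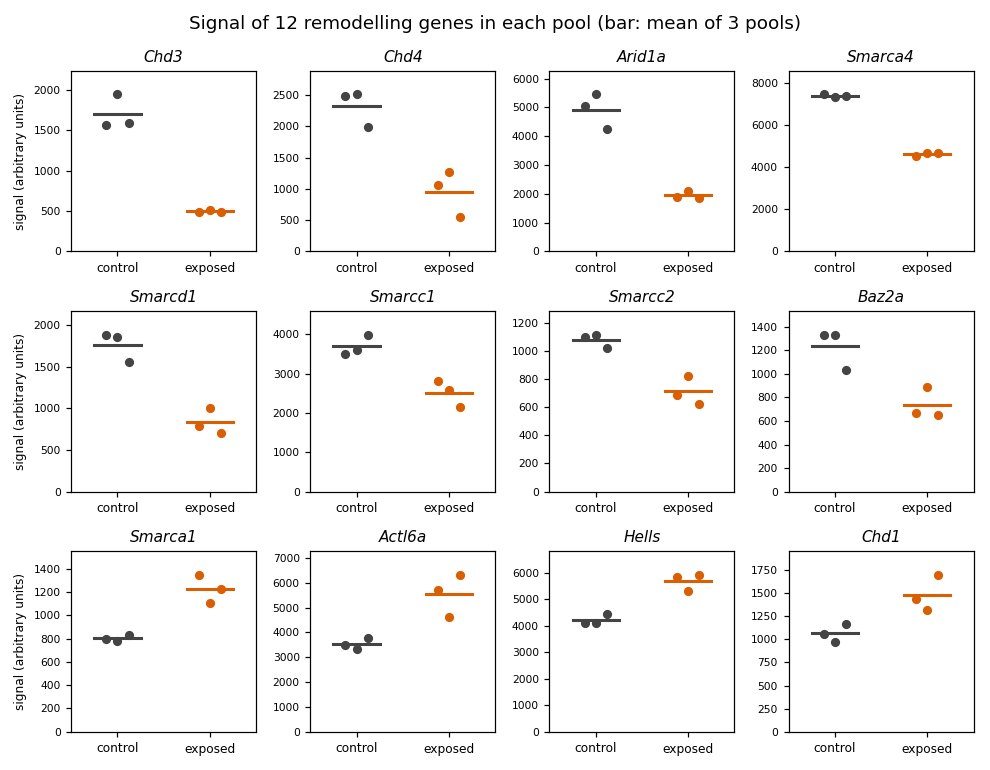
Signal (vertical axis, arbitrary units, from 0) of 12 remodelling genes in each of 3 control pools (grey) and 3 diabetes-exposed pools (orange), with a bar at each mean. In each of the 12 the groups are apart: the first 8 genes were lower in every exposed pool, and Smarca1, Actl6a, Hells and Chd1 were higher.

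Promoter sequence is shown for genes of the family that fell in both probe sets or with the least spread (Arid1a, Smarca4) and for both genes whose increase outlasted the removal of any pool (Smarca1 and Hells), as examples of each direction. Each run covers 250 bases before to 50 after the gene start in RefSeq, assembly GRCm38.p6, 5′ to 3′ on the gene's strand, and capitals mark GC boxes (GGGCGG, or CCGCCC on the other strand) and CCAAT boxes (CCAAT or ATTGG). Arid1a has 2 promoters in the table, and that at chr4:133753936-133754235 on the minus strand is shown, with Smarca4 at chr9:21615919-21616218 (plus), Smarca1 at chrX:47892564-47892863 (minus) and Hells at chr19:38930740-38931039 (plus).
Arid1a: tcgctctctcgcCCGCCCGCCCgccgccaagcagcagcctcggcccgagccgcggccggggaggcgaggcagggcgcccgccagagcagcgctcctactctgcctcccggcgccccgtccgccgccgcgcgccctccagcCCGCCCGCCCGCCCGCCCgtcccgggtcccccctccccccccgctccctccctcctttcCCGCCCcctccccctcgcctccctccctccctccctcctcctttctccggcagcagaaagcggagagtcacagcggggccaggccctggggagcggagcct
Smarca4: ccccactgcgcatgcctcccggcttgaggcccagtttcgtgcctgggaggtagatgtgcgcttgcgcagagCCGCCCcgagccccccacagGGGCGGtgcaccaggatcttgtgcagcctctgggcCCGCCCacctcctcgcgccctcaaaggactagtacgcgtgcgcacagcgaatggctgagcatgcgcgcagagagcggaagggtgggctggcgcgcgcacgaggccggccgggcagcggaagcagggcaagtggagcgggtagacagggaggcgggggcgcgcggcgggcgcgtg
Smarca1: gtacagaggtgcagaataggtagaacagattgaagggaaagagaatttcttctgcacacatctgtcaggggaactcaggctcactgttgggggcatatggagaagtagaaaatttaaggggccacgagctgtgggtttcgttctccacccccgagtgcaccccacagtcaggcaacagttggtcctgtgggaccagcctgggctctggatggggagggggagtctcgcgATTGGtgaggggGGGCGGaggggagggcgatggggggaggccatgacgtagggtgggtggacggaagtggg
Hells: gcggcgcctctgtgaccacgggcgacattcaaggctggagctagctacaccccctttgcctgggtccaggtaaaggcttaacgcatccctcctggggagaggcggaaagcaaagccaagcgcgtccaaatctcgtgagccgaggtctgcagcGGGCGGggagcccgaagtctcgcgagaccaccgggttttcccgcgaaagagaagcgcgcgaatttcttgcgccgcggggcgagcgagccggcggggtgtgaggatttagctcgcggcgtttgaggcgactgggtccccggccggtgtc
The first holds 36 CpG dinucleotides and 7 GC boxes, most of which overlap a neighbour, the second 33 and 3, the third 9 and 1 with 1 CCAAT box, and the fourth 34 and 1.

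RefSeq promoters were found for 38 of the 49 genes, 46 promoters in all. They were rich in CpG dinucleotides, with a median of 25.5 in 300 bases against 7 over 32851 promoters of all genes, which include those of many non-coding and predicted genes. A GC box on either strand was present in 78.3% of member promoters and 35.7% of all promoters, and a CCAAT box in 34.8% and 37.4%. TATAAA was found in 6.52% against 13.6%, and ACGTG in 13% against 19.6%, on either strand. The 14 promoters of members that fell had a median of 28 CpG dinucleotides, the 3 of members that rose 21, and the 27 of members that did not pass 23. These are matches of letters in these windows and not measured sites.

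Among the ISWI genes, one motor rose while BAZ partners fell. Smarca1, which encodes SNF2L, a motor used in neural progenitors, rose from 793.9, 779.9 and 832.0 to 1347.5, 1104.8 and 1228.3, with a log2 fold change of 0.61 (SE 0.11, adjusted p = 0.0030). The lowest exposed pool lay well above the highest control. Smarca5, which encodes the more widely used motor SNF2H, stood at 6583.2, 6617.7 and 7127.1 against 7882.5, 7431.8 and 7369.1. Every exposed pool was higher, but the log2 fold change of 0.16 (SE 0.08) did not pass (adjusted p = 0.14).

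Baz2a, the TIP5 subunit of the complex that silences ribosomal RNA genes, fell by 0.75 (SE 0.15, adjusted p = 0.0063), from 1329.8, 1335.0 and 1037.3 to 670.6, 888.0 and 650.2, at a probe set that may bind several transcripts. The remaining Baz2a probe sets did not pass. Baz1a, the ACF1 partner of SNF2H, fell by 0.41 (SE 0.08, adjusted p = 0.0059), from 1910.7, 1845.6 and 1809.7 to 1341.4, 1446.9 and 1400.8. After median centring Baz1a was at -0.11 (adjusted p = 0.60). Baz1b, the WSTF partner, fell by 0.29 (SE 0.09, adjusted p = 0.028), from 5621.6, 5734.3 and 6005.1 to 5145.6, 4703.6 and 4363.2. The call of Baz1b ended without any of the control pools or without diabetes-exposed replicate 3 (adjusted p between 0.073 and 0.093), and after median centring its log2 fold change was 0.0068 (adjusted p = 0.98). Baz2b had a log2 fold change of 0.02 (adjusted p = 0.90). Bptf, the largest subunit of the NURF complex, was lower in every exposed pool, at 3671.0, 3038.0 and 3744.9 where the controls stood at 4216.5, 4227.7 and 3923.5, but did not pass (log2 fold change -0.25, SE 0.10, adjusted p = 0.084).

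The INO80 genes differed little. Ino80, the motor, had overlapping signals of 700.9, 621.9 and 526.6 against 702.8, 603.3 and 714.6, with a log2 fold change of 0.13 (SE 0.14, adjusted p = 0.49). Ino80d, a metazoan subunit, fell by 0.33 (SE 0.11, adjusted p = 0.042), from 842.2, 948.8 and 885.8 to 732.0, 753.2 and 642.7. That call was near the threshold and ended without any control pool or without diabetes-exposed replicate 1 or 3 (adjusted p between 0.076 and 0.16) and under each of the 3 other scalings (0.13 to 0.89). Ino80c had a similar log2 fold change of -0.34 (adjusted p = 0.059), and Ino80b and Ino80e stood at -0.13 and 0.01 (adjusted p = 0.61 and 0.95). A second Ino80e probe set, almost as bright, fell from 719.6, 899.7 and 855.7 to 413.2, 566.7 and 398.1 (log2 fold change -0.86, SE 0.16, adjusted p = 0.0043).

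Of the SNF2 ATPases outside the 4 families, Hells rose and Smarcad1 fell. Hells encodes LSH, a motor needed for methylation of repeated DNA. Its signal was 4118.9, 4089.7 and 4445.5 among control pools and 5840.9, 5322.1 and 5931.4 among diabetes-exposed pools, without overlap, and the log2 fold change was 0.43 (SE 0.08, adjusted p = 0.0042). A second probe set of Hells also rose, by 0.36 (SE 0.10, adjusted p = 0.025). Smarcad1, which acts on newly replicated chromatin, fell by 0.28 (SE 0.09, adjusted p = 0.045), a call that ended without any control pool or without diabetes-exposed replicate 1 or 3 (adjusted p between 0.099 and 0.15), and after median centring its log2 fold change was 0.02 (adjusted p = 0.92). Atrx, which deposits histone H3.3 in heterochromatin, stood at 5648.5, 5414.8 and 5915.7 against 6566.9, 6191.2 and 6373.7. Each exposed pool was higher, with a log2 fold change of 0.17 (SE 0.07, adjusted p = 0.11). Smarcal1, which rewinds DNA at stalled replication forks, had a log2 fold change of -0.19 (adjusted p = 0.22).

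The ARID proteins outside SWI/SNF bind DNA but are not remodelling motors. The transcription factor genes Arid3a and Arid3b both fell, by 0.80 (SE 0.21, adjusted p = 0.019) and 0.61 (SE 0.13, adjusted p = 0.0077). Arid3a went from 626.1, 552.7 and 403.9 to 296.3, 377.0 and 239.0, and Arid3b from 715.5, 742.9 and 707.3 to 431.4, 561.9 and 431.8. The call of Arid3a ended without control replicate 1 or 2 or diabetes-exposed replicate 1 or 3 (adjusted p between 0.059 and 0.080) and after median centring and quantile normalization (0.055 and 0.059), and that of Arid3b after median centring (0.17). Arid4a, Arid4b, Arid5a and Arid5b did not pass, with log2 fold changes between -0.43 and 0.18.

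Paralogues were compared in pairs by their log2 signal ratio within each array. This measure does not depend on how an array is scaled as a whole. A change of this ratio shows unequal change and not which of the pair is more abundant. The ratio of Arid1a to Arid1b was 2.23, 2.41 and 2.21 among control pools and 0.54, 1.39 and 0.70 among exposed pools, a difference of -1.41. That of Smarcd1 to Smarcd3 differed by -0.81, that of Smarca4 to Smarca2 by -0.68, that of Baz2a to Baz2b by -0.77 and that of Chd7 to Chd8 by -0.39. The ratio of Actl6a to Actl6b was higher by 1.67, with the dim Actl6b in its denominator, and that of Smarca1 to Smarca5 by 0.45. In each of these 7 pairs the groups did not overlap, and a two-sided exact permutation test gave p = 0.1, the lowest value possible with 3 arrays a group (0.14 after Benjamini-Hochberg adjustment over the 10 pairs). Ratios of other gene pairs were not examined, so the 7 have no background share. Of all single genes, 26.5% were lower and 25.9% higher in every exposed pool. The part of the 3' signal difference between the groups in these ratios was not tested.

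The ratios of Chd3 to Chd4, Smarcc1 to Smarcc2 and Baz1a to Baz1b overlapped between the groups, with differences of -0.40, 0.04 and -0.12 (exact permutation p = 0.4, 0.7 and 0.4). Some differences changed when the mean of all probe sets of each gene was used: that of Baz2a to Baz2b became -0.0068, that of Baz1a to Baz1b 0.86 and that of Smarcc1 to Smarcc2 -0.97. After quantile normalization the differences of Smarca1 to Smarca5 and of Smarca4 to Smarca2 were 0.90 and -1.16.

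**Figure D3:**
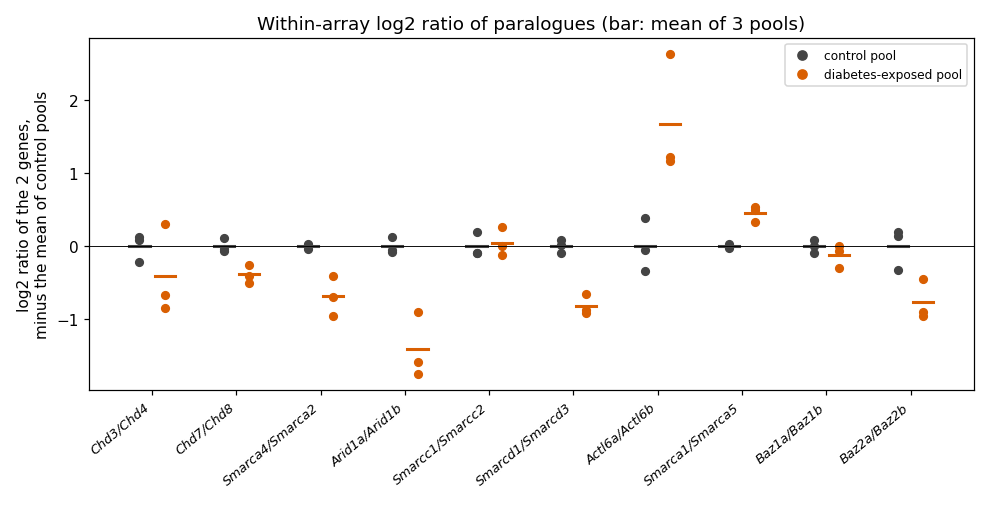
Log2 signal ratio of 10 pairs of paralogues in each pool (vertical axis), minus the mean of the control pools, with bars at the group means. In 7 pairs the orange exposed pools lie apart from the grey control pools, with the means furthest apart for Arid1a/Arid1b (-1.41) and Actl6a/Actl6b (1.67).

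Several members were read by more than 1 tested probe set, and these often differed, as they did over all genes. The median range of log2 fold change within a gene was 0.84 for members and 0.77 for all genes with several probe sets. Of 28 such genes, 2 had probe sets called in both directions (7.14%, where 8.58% of all 6514 genes with several probe sets did). The largest spread was in Smarca5. Its brightest probe set is given above. A second probe set, made from the same cDNA sequence according to the platform table, rose from 2604.5, 2332.7 and 2593.6 to 3281.0, 2847.4 and 3121.3 (log2 fold change 0.30, SE 0.09, adjusted p = 0.033). Yet another from that sequence fell from 1942.4, 1917.2 and 1557.9 to 116.5, 424.6 and 136.4 (log2 fold change -3.25, SE 0.42, adjusted p = 0.0010). The other gene called in both directions was Chd1, of which a probe set fell from 858.7, 827.4 and 682.2 to 181.0, 344.6 and 217.6 (-1.72, SE 0.23, adjusted p = 0.0012). At the mean of all its probe sets, Chd1 had a log2 fold change of -0.45 (adjusted p = 0.022).

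Probe sets of Atrx also differed, though none was called as higher. Of its 7 probe sets 5 share a source sequence. The brightest of those 5, which may bind several transcripts, fell from 843.1, 768.4 and 504.0 to 67.4, 77.5 and 47, with a log2 fold change of -3.46 (SE 0.26, adjusted p = 2.0e-04). The probe set used for Atrx above was many times brighter and did not pass. Baz1b had a second tested probe set that went from 964.7, 811.0 and 122.3 to 34.0, 63.0 and 33.5 (-3.46, SE 0.70, adjusted p = 0.0059), where control replicate 3 lay far below the other controls. In Smarcc1 a dim probe set fell by 3.71 (SE 0.53, adjusted p = 0.0015), in Arid4b 3 probe sets fell, with log2 fold changes of -1.72, -2.35 and -3.37, while the brightest did not pass, and in Bptf one fell by 1.64 (SE 0.28, adjusted p = 0.0030).

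Over the 28 genes, the brightest probe sets had a median log2 fold change of -0.10 and the other 52 a median of -0.38. At least 2-fold lower were 2 of the brightest (7.14%) and 10 of the others (19.2%), where over all genes with several probe sets these shares were 5.79% and 19.6%. Counted by probe set, 31 of the 99 members fell and 7 rose, or 31.3% and 7.07%, where 21.8% and 14.4% of all tested probe sets did. Of the 99, 14 fell at least 2-fold, where 11% of all tested probe sets did. The exposed pools were all lower for 41 of the 99 and all higher for 13, where the background was 28% and 21.9%.

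**Figure D4:**
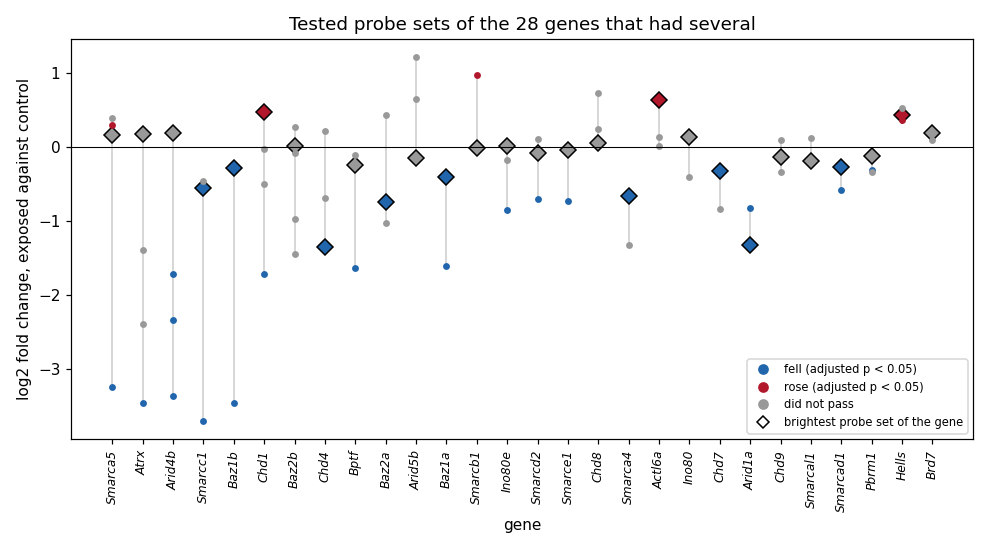
Log2 fold change (vertical axis) of each tested probe set of the 28 genes that had several, ordered by the spread within the gene. Diamonds are the brightest probe sets, which lie between -1.36 and 0.64, while other probe sets of Smarca5, Atrx, Arid4b, Smarcc1 and Baz1b lie below -3.

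Most calls ended with the spike ratio of the arrays in the fit, and the fold changes moved to unequal extents. With the mean log2 middle to 3' ratio of the spikes as a covariate, 3 of the 47 genes fell and 0 rose, where 1.73% of all genes fell and 0.0788% rose. The 3 were Chd3, at -1.63 (adjusted p = 0.021), Arid1a, at -1.03 (0.040), and Smarca4, at -0.65 (0.038). By probe set 5 fell, the other two being the second of Arid1a, at -0.82 (adjusted p = 0.049), and that of Atrx described above, at -2.62 (0.038), where 1.11% of all probe sets fell. Chd4 stood at -0.25 (adjusted p = 0.83), Smarcd1 at -0.46 (0.29), Smarcc1 at -0.50 (0.35), Smarcc2 at -0.15 (0.77), Baz2a at -0.10 (0.88) and Baz1a at -0.30 (0.41) with the covariate. Smarcc1 thus stayed near its -0.56 without the covariate, and Baz1b, at -0.31 (0.40), near its -0.29, although both calls ended. Some genes not called moved away from 0 without passing, such as Bptf to -0.57 (0.12) and Smarcd2 to -0.63 (0.088). Of the genes that rose, Smarca1 stood at 0.32 (0.47), Hells at 0.21 (0.46), Actl6a at 0.11 (0.76) and Chd1 at 0.08 (0.90), and the probe set of Smarca5 with the large decrease stood at -1.02 (0.13). The 3' to middle spike ratio was higher on each exposed array than on any control array. Its part and that of the groups therefore cannot be told apart in full.

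Diabetes-exposed replicate 2, with the lowest 3' to middle ratio of the 3, had the highest signal of the exposed pools in 24 of the 31 member probe sets that fell (77.4%, against 64.4% of all probe sets that fell) and the lowest in 6 of the 7 that rose (85.7%, against 71.7%). Among the 61 member probe sets that did not pass it was highest in 18 (29.5%, against 36.9% of all probe sets that did not pass). The part of this ratio in the results was not tested beyond these values.

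**Figure D5:**
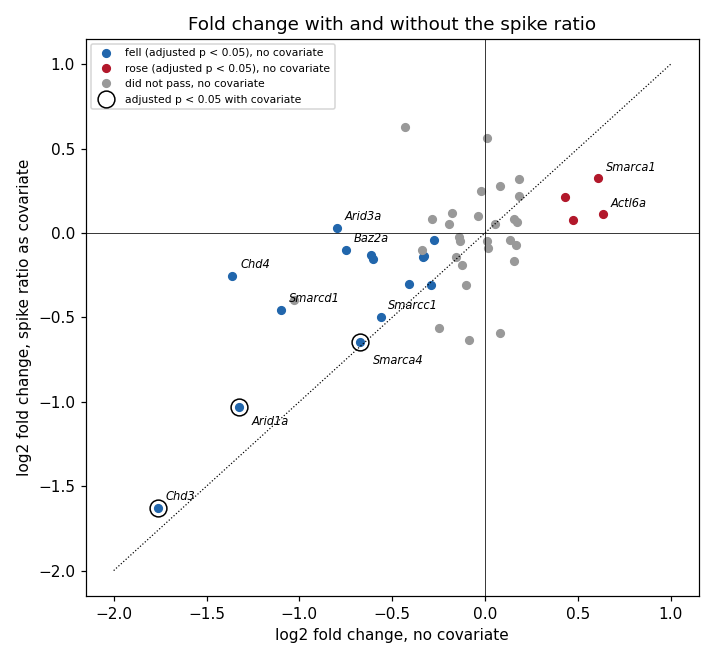
Log2 fold change of the 47 measured genes without (horizontal axis) and with (vertical axis) the spike ratio as a covariate, with a dotted line where both are equal. Chd3, Arid1a and Smarca4, ringed, lie near the line, while Chd4, Smarcd1, Baz2a, Actl6a and Smarca1 lie nearer to 0 on the vertical axis. Smarcc1, not ringed, also lies near the line.

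Genes of the same complexes outside the rule were read in the same way. Of 55 measured partners 19 fell and 10 rose, or 34.5% and 18.2%, where 19.9% and 17.6% of all genes did. These 2 background shares also apply to each list of partners and markers that follows, for counts without the spike covariate. With the covariate 1.73% of all genes fell and 0.0788% rose. Of the 29 calls among partners, 2 remained with it. Among 12 partners of CHD3 and CHD4 in NuRD, 5 fell and 3 rose: the methyl-CpG binding protein genes Mbd3 and Mbd2 fell by 1.39 and 0.34, Mta2, Gatad2a and Gatad2b by 0.64, 0.87 and 0.70, and Hdac1, Hdac2 and the histone chaperone gene Rbbp7 rose by 0.35, 0.60 and 0.44. With the spike covariate none of these 8 passed (adjusted p between 0.15 and 0.94). Of 14 further SWI/SNF subunits 6 fell, none rose, and the median was -0.40 on the log2 scale. Phf10, the BAF45A subunit of neural progenitors, fell from 3585.1, 3372.3 and 3313.4 to 1912.6, 1865.8 and 1708.4 (log2 fold change -0.91, adjusted p = 3.4e-04), and passed with the spike covariate too (-0.81, adjusted p = 0.048). Bicra and Bicral, alternative subunits of the non-canonical complex, fell by 1.12 and 1.24, and Ss18l1, Bcl7a and Bcl7c by 0.66, 0.60 and 0.66. These 5 did not pass with the covariate (adjusted p between 0.19 and 0.95). The neuronal subunit genes Dpf1 and Dpf3 were dim and did not pass (adjusted p = 0.37 and 0.69).

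Of 5 ISWI partners 2 rose and 0 fell, Chrac1, a histone-fold subunit of the CHRAC complex, by 0.93 (adjusted p = 9.3e-04) and Hmgxb4 by 0.46 (0.0080). With the covariate they stood at 0.53 (adjusted p = 0.21) and 0.30 (0.52). Of 24 measured genes of the INO80, SRCAP and TIP60 complexes 8 fell and 5 rose. The scaffold gene Trrap and the motor genes Srcap and Ep400 fell by 0.69, 0.70 and 0.51, the acetyltransferase gene Kat5 by 0.74, Yy1, the zinc finger subunit of INO80, by 0.67, the actin-related subunit genes Actr5 and Actr8 by 0.67 and 0.34, and Nfrkb by 0.44. Tfpt, Actr6 (also an actin-related subunit), Znhit1, Ing3 and Yeats4 rose by 1.03, 0.73, 0.68, 0.66 and 0.31. With the spike covariate Yy1 passed (-0.89, adjusted p = 0.044) and the other 12 of these calls did not (adjusted p between 0.18 and 1). Vps72, a subunit of SRCAP and TIP60, passed with the covariate as higher (0.77, adjusted p = 0.046) but not without it (0.09, adjusted p = 0.66).

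Markers of cell types also differed between the pools. Of 12 measured markers of neural progenitors 8 fell and 1 rose, and their summed signal was 40601 to 41873 in the control pools and 32613 to 33984 in the exposed pools. Of 15 neuronal markers 8 fell and 1 rose, with sums of 27095 to 31466 against 23442 to 24909. Of 12 markers of cardiomyocytes 10 rose and 0 fell, with sums of 25568 to 30943 against 47524 to 50783. Of 8 measured markers of primitive red cells 2 fell and 0 rose, with overlapping sums. Of 18 listed markers of decidua and placenta 12 were on the array and 3 were bright enough, of which 2 fell and 1 rose. Cdkn1c fell by 0.85 (adjusted p = 0.0011), and Hand1, also a gene of the heart, rose from 264.9, 237.1 and 254.9 to 369.8, 412.0 and 373.1 (0.61, adjusted p = 0.0079). Prl8a2, a hormone gene of the maternal decidua, stood at 6522.1, 5698.9 and 6412.2 among control pools and 39.0, 39.3 and 30.7 among exposed pools, while Prl4a1, Prl7a1, Tpbpa, Ctsq, Ctsj, Rhox6, Rhox9, Psg17 and Ceacam11 were below the filter. With the spike covariate 5 of the neural progenitor markers fell, 2 of the cardiomyocyte markers rose, 1 of the decidua and placenta markers (Prl8a2) fell, and 0 of the neuronal and red cell markers passed. Of all genes 1.73% fell and 0.0788% rose with that covariate. The part of these marker differences in the values of the remodelling genes was not tested.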

How the data were processed

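The deposited table held 1 signal intensity per probe set and array, made by the authors in GCOS with the MAS5 method (per the submitters' processing notes) and scaled so that each array had nearly the same trimmed mean (499.8 to 499.9). Their versions are not stated in the sources. Log2 was taken with no further scaling. The 64 Affymetrix controls and the dimmest 33.3% of probe sets by mean log2 signal over all 6 arrays (a signal under 26.7) were left out. The fit was limma 3.58.1 under R 4.3.3, using lmFit and trended eBayes, with Benjamini-Hochberg adjustment over 30024 probe sets. The platform's table gave 1 symbol to 34958 probe sets, several to 932 and none to 9211. The procedure was run on simulated data with independent noise for each probe set. These data held no difference in 3' signal between the groups, so that run does not bear on it. The members, families, lists, paralogue pairs and the rule for named genes (genes changed at least 2-fold, up to 2 per direction with the smallest adjusted p in a family, genes with probe sets called in both directions, paralogue pairs and motors) were chosen with earlier results of these data known. Probe sets described within genes beyond that rule, and the partners named, were picked with their values in view. The alternatives, 18 in all, were other scalings, a pseudocount of 32, other filters, no trend, dropping probe sets marked as cross-binding (_x_ or _s_), each pool left out, the spike ratio as covariate, the replicate number as a block, the unequal-variance test of the study's methods, and averaging a gene's probe sets. Plots used matplotlib 3.10.9 (Python 3.11.15).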

Additional observations from a re-analysis of the deposited data

How the results depend on the processing

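The counts of members depended on the scaling and the test. Of the 19 genes called, 2 that rose and 10 that fell passed in the same direction whichever pool was left out, 4 and 5 under all 3 other scalings, and 2 and 13 at the mean of all probe sets. With any single pool removed, member genes that fell ran from 10 to 16 (2 to 5 at least 2-fold) and those that rose from 2 to 5. The share of all genes at least 2-fold lower was counted only in the main fit (6.01%). The 2-fold counts in this section therefore have no background of their own. Over all genes the shares that fell and rose ran from 13.1% to 22.6% and from 10.9% to 20.1%. Member probe sets ran from 22 to 35 and 4 to 8, where the shares of all probe sets ran from 14.6% to 24.5% and 9.1% to 16.5%. The medians ran from -0.19 to -0.08 for CHD, -0.16 to -0.10 for SWI/SNF, -0.29 to -0.15 for ISWI, -0.26 to -0.0781 for INO80, -0.037 to 0.032 for the other SNF2 ATPases and -0.38 to -0.13 for the other ARID proteins.

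After median centring 5 genes fell (10.6%) and 9 rose (19.1%), where 8.73% and 29.1% of all genes did, and 19 probe sets fell (19.2%) and 14 rose (14.1%), where 13% and 24.8% of all probe sets did. The medians, in the order above, were 0.16, 0.19, 0.0503, 0.17, 0.29 and 0.0045. After quantile normalization they were 0.0641, -0.21, -0.38, 0.20, -0.0755 and -0.0894, and after cyclic loess normalization -0.0183, -0.19, -0.38, 0.0928, -0.0841 and -0.17. These scalings moved the median of all genes to 0.30, 0.14 and 0.08. At the mean of all probe sets 9 genes fell at least 2-fold. Of all genes 25.2% fell by any amount there, which has no 2-fold limit and is not a background for the 9. The share of all genes that fell at least 2-fold was counted in the main fit (6.01%) and not for this setting. The medians from SWI/SNF on were -0.27, -0.60, -0.33, -0.23 and -0.52. With the spike ratio as covariate 3 genes fell (2 at least 2-fold) and 0 rose, where 1.73% and 0.0788% of all genes did. By probe set 5 fell and 0 rose, where 1.11% and 0.0966% did, and those medians were -0.17, -0.0981, -0.0501, 0.0585 and -0.0513. The unequal-variance test of the methods called 1 gene (Smarca4) as lower and 0 as higher, where 1.69% and 0.387% of all genes were. The study also required a second test, Cyber-T, which was not run here. Its own unequal-variance test passed many more probe sets than the run here. With the unequal-variance test as run here 0 fell at least 2-fold, and Chd3 and Arid1a did not pass (adjusted p = 0.0605 and 0.06). By probe set 3 fell and 0 rose, where 1.11% and 0.27% of all probe sets did. With no trend in eBayes 4 probe sets rose, where 10.5% of all probe sets did. With the dimmer 50% left out the median of the other ARID proteins was -0.16.

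Of single genes called, Baz1b and Smarcad1 turned to 0.0068 and 0.023 after median centring, Arid3a to 0.0308 with the spike covariate and Chd1 to -0.45 at the mean of its probe sets. The cause was not tested. Same-numbered pools shared only a number: the correlation of their deviations from the group means was 0.00, 0.08 and 0.12. With the replicate number as a block 14 genes fell and 4 rose, where 19.9% of all genes fell and 17.3% rose. Dim probe sets limit what can be said of Actl6b, Arid5a and Chd5.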
